A study of Danio rerio with 4 samples.

Results

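The genes described here are 9 immediate early genes of the zebrafish, *egr1*, *egr2a*, *egr3*, *nr4a1*, *nr4a2a*, *nr4a3*, *ier2a*, *ier2b* and *dusp1*, which were picked by their symbols among the 32520 genes counted. RNA-seq was performed on *kdrl:eGFP* endothelial cells of adult ventricles at 7 days post-amputation (dpa), sorted by fluorescence-activated cell sorting (FACS), with 2 CtrlK and 2 DNK libraries. Fish of both groups carried the *ubi*-driven switch transgene in which a loxp-flanked DsRed-STOP cassette precedes DN-xBrg1, a dominant-negative form of *Xenopus* Brg1, together with the endothelial reporter, and according to the labels, all fish received 4-hydroxytamoxifen (4-HT), which activates CreER, over the 3 days that preceded surgery. Only DNK fish carried *kdrl:CreER* as well, so that DN-xBrg1 was switched on in endothelial cells. The hearts of several fish were pooled, the ventricles were digested with collagenase in repeated warm steps before the sort, and both CreER and the reporter depended on the *kdrl* promoter. The question was which genes of cardiac endothelial cells differ when Brg1, the ATPase of the SWI/SNF chromatin-remodeling complex, is inhibited during heart regeneration.

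Immediate early genes are transcribed within minutes of a stimulus without new protein synthesis, downstream of MAP kinases, serum response factor and its Elk partners, and CREB. Egr1, Egr2 and Egr3 are zinc-finger transcription factors that bind GC-rich DNA. Nr4a1, Nr4a2 and Nr4a3 are orphan nuclear receptors, whose activity follows their amount, and Dusp1 is a phosphatase that switches MAP kinases off. In mammalian endothelium this class of genes is induced by growth factors, shear stress and wounding, and it is also known to respond to the enzymatic digestion of tissue.

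Among the 9 genes, *egr1*, *egr3*, *nr4a1* and *dusp1* fell in DNK, with *nr4a1* at 0.547 and *egr3* at 0.511 of the CtrlK level. When the libraries were scaled to endothelial markers, however, *egr1* came to a log2 fold change of 0.003 and *egr3* and *dusp1* missed the threshold. That scaling also moved the median log2 fold change of all tested genes, from -0.02 to 0.28. The *nr4a3* gene had the largest difference, a log2 fold change of -1.23, but its replicates lay apart and it missed the threshold. The genes *egr2a*, *ier2a* and *ier2b* did not pass the test, and *nr4a2a* had 0 counts in every library. These calls come from edgeR's quasi-likelihood test (two-sided, adjusted p under 0.05 after Benjamini-Hochberg adjustment over the 17151 genes that passed edgeR's filterByExpr), in which 4.23% of all tested genes were called lower and 4.22% were called higher in DNK. Of the 8 early genes tested, 4 were called lower and 0 higher, with 5 lower and 1 higher (*ier2a*) at an unadjusted p under 0.05, which 12.6% of all tested genes reached as lower and 11.3% as higher. Among tested genes with a mean of 500 or more counts, 6.18% were called lower. This share does not cover *egr2a* and the called *egr3*, whose means were 423 and 362.5 counts. Of the 8 genes, 6 had a log2 fold change below 0, as did 51.7% of all tested genes. Both DNK libraries lay below both CtrlK libraries for 5 of the 8 (28.6% of all tested genes) and above them for 2 (26.9% of all tested genes), and the groups overlapped for 1. With DESeq2, which called 8.35% of tested genes lower and 7.41% higher, 5 of the 8 were called lower and 0 higher. The median log2 fold change of the 8 genes was -0.37, beside -0.02 over all tested genes.

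The total counts of the libraries lay between 25189862 and 28770727. The smallest detectable level, for counting error only, was taken as 3 counts. That is between 0.104 and 0.119 counts-per-million (CPM) of total counts, without TMM scaling. The 8 endothelial markers matched had between 2858 and 28704 counts in every library and together took between 0.363% and 0.449% of all counts, with lower shares in DNK, and *kdrl*, *egfl7* and *pecam1* were called lower in DNK. Of the other cell types, 7 cardiomyocyte markers took 1.28% and 0.418% in CtrlK1 and CtrlK2 and 0.124% and 0.0144% in DNK1 and DNK2. The replicates were far apart, and edgeR's quasi-likelihood test called 0 of the 7 (smallest adjusted p = 0.36), while DESeq2 called 2 lower. The marker *myh6* went the other way, with 0 and 28 counts in CtrlK and 84 and 30 in DNK. The 7 leukocyte markers took between 0.0365% and 0.0381% in CtrlK and between 0.0201% and 0.0213% in DNK, where *mpx* was at 0 in both libraries, and *lyz* was at 0 in all 4. Of the 6 leukocyte markers tested, edgeR called 4 lower and DESeq2 called 6 lower, beside 4.23% and 8.35% of all tested genes. The 5 erythrocyte, 3 thrombocyte and 4 mural cell markers also took lower shares in both DNK libraries. Their shares lay between 0.000113% and 0.01935% of counts over all libraries. EdgeR called 1 of the erythrocyte, 3 of the thrombocyte and 1 of the mural cell markers lower, and DESeq2 called 4, 3 and 1. The groups overlapped for 1 of the erythrocyte and 2 of the mural cell markers. The 5 markers of epicardium and fibroblasts went from between 0.0623% and 0.0677% in CtrlK to between 0.121% and 0.124% in DNK, through *col1a1a* and *pdgfra*, but the other 3 markers went the other way. The *postnb* gene had 818 and 18 counts in CtrlK and 1 and 0 in DNK, and the epicardial *tbx18* and *tcf21* had 47 and 62 and 19 and 56 in CtrlK against 0 and 4 and 14 and 0 in DNK, none of them called by edgeR. DESeq2 called *postnb* and *tbx18* lower (adjusted p = 0.0050 and 0.0063). EdgeR called *col1a1a* and *pdgfra* higher (adjusted p = 0.0013 and 0.00073, quasi-likelihood test). Cardiomyocytes, leukocytes and fibroblasts can also express immediate early genes, and the part of these cells in the results below was not tested. The endogenous *smarca4a*, which encodes Brg1, does not report the transgene. It had 621, 756, 1153 and 798 counts in CtrlK1, CtrlK2, DNK1 and DNK2 and a log2 fold change of 0.40 (SE 0.20, edgeR quasi-likelihood adjusted p = 0.27), which was 0.18 without DNK1 and 0.60 without DNK2. In sorted bulk samples, fewer cells that express a gene and less RNA of it per cell cannot be told apart.

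**Figure D1:**
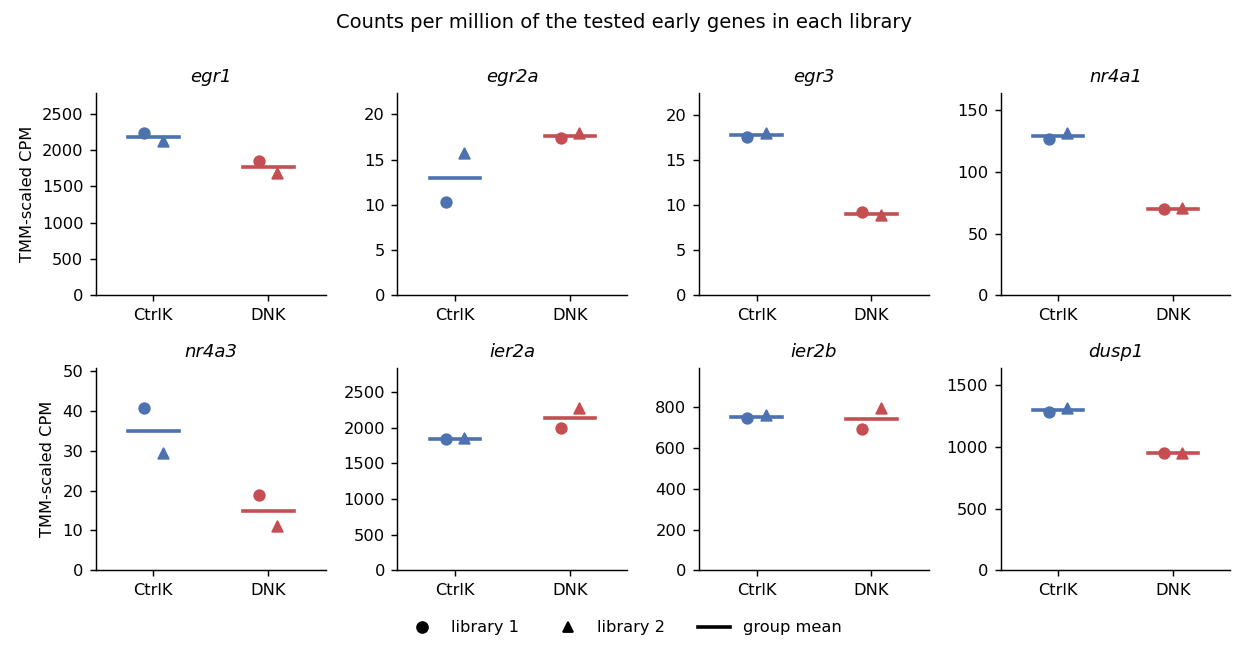
CPM after TMM scaling (y axis, linear, from 0) of the 8 tested early genes in CtrlK and DNK (x axis), with 1 point per library and the group mean as a bar. The libraries of *nr4a1* and *dusp1* almost coincide within DNK, at 70.0 and 70.4 CPM and at 945 and 948 CPM, and lie below both CtrlK libraries. The libraries of *nr4a3* are spread in both groups, and those of *ier2b* overlap between groups.

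Of the Egr factors, *egr1* (ENSDARG00000037421) had 52801 (CtrlK1), 61577 (CtrlK2), 53882 (DNK1) and 45586 (DNK2) counts. After scaling by the trimmed mean of M-values (TMM), both DNK libraries were lower, at 1850 and 1690 CPM against 2230 and 2120 CPM in CtrlK. The normalized count, scaled to the mean library size, was 59134 ± 1991 for CtrlK and 48057 ± 3133 for DNK (SD, n = 2 libraries each), a decrease to 0.813 of the CtrlK level. The log2 fold change was -0.30 (standard error 0.07, 95% interval -0.46 to -0.14, adjusted p = 0.041, edgeR quasi-likelihood test). The libraries of 1 group differed by 0.07 (CtrlK) and 0.13 (DNK) on the log2 scale, which was less than the difference between groups. With 1 library left out the difference stayed between -0.37 and -0.23, but the call was lost in 3 of 4 cases, with an adjusted p from edgeR of 0.21 without CtrlK1, 0.11 without CtrlK2 and 0.17 without DNK2, and 0.048 without DNK1.

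The *egr3* gene (ENSDARG00000089156), a relative of *egr1* known for its role downstream of VEGF in human endothelial cells, had 418 (CtrlK1), 521 (CtrlK2), 269 (DNK1) and 242 (DNK2) counts. The CtrlK libraries were nearly equal, at 17.6 and 18.0 CPM, as were the DNK libraries, at 9.23 and 8.95 CPM. Normalized counts fell from 484 ± 6.46 to 247 ± 5.39 (SD, n = 2 libraries each), equal to a log2 fold change of -0.97 (standard error 0.23, 95% interval -1.52 to -0.42, adjusted p = 0.049, edgeR quasi-likelihood test). The replicates of *egr3* were closer than those of most genes of like count, in that 4.7% of the 1000 nearest genes had an equal or smaller difference between the CtrlK libraries and 7.6% between the DNK libraries. Both differences were below the standard error of 0.08 that counting error alone gives the log2 fold change. The SD of these 2 libraries is therefore likely to understate the spread. When any 1 library was omitted, its log2 fold change stayed between -0.99 and -0.95, but edgeR's adjusted p lay between 0.13 and 0.17, so the call was lost without any 1 of the 4 libraries. DESeq2 gave an adjusted p of 0.0076.

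In contrast, *egr2a* (ENSDARG00000044098) had 245 (CtrlK1), 454 (CtrlK2), 508 (DNK1) and 485 (DNK2) counts. Both DNK libraries were higher, at 17.4 and 17.9 CPM, but CtrlK1 with 10.3 CPM lay well below CtrlK2 with 15.7 CPM. The log2 fold change of 0.44 (standard error 0.27, 95% interval -0.19 to 1.07, adjusted p = 0.38, edgeR quasi-likelihood test) was smaller than the difference of 0.60 between the CtrlK libraries. Without CtrlK1 it was 0.18. The counts of *egr3* per count of *egr2a*, a ratio within each library that no scaling changes, were 1.71 and 1.15 in CtrlK and 0.530 and 0.499 in DNK. The same ratio of *egr3* to *egr1* was 0.0079 and 0.0085 in CtrlK and 0.0050 and 0.0053 in DNK. Since *egr3* was lower and *egr2a* higher in both DNK libraries, their ratio had to separate the groups and is no further result.

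Of the remaining Egr genes, *egr2b* had at most 17 counts in any library, and *egr4* had 9 counts in CtrlK1 and 110 in CtrlK2 beside 77 and 56 in DNK. Neither was called, and their log2 fold changes of 1.40 and 0.17 had standard errors of 1.66 and 0.96.

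Of the nuclear receptors, *nr4a1* (ENSDARG00000000796), known in mice and humans for its induction in endothelial cells by VEGF and inflammatory signals, showed the clearest difference. It had 2977 (CtrlK1), 3806 (CtrlK2), 2039 (DNK1) and 1904 (DNK2) counts. In CPM, the DNK libraries lay at 70.0 and 70.4 and the CtrlK libraries at 126 and 131, with a wide gap between the groups. Normalized counts fell from 3491 ± 109 to 1909 ± 8.68 (SD, n = 2 libraries each), equal to a log2 fold change of -0.87 (standard error 0.11, 95% interval -1.13 to -0.61, adjusted p = 0.0046, edgeR quasi-likelihood test). The difference between groups exceeded the differences within groups, which were 0.06 for CtrlK and 0.01 for DNK on the log2 scale. The DNK libraries differed by less than the standard error of 0.029 that counting error alone gives the log2 fold change. The call was kept without each library in turn, with log2 fold changes between -0.90 and -0.84 and adjusted p between 0.016 and 0.024 from edgeR.

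The *nr4a3* gene (ENSDARG00000055854) had 962 (CtrlK1), 853 (CtrlK2), 549 (DNK1) and 299 (DNK2) counts. All DNK values lay below the CtrlK values, but CtrlK1 with 40.6 CPM was well above CtrlK2 with 29.4 CPM, and DNK1 with 18.8 CPM well above DNK2 with 11.1 CPM. The normalized count was 951 ± 215 for CtrlK and 406 ± 150 for DNK (SD, n = 2 libraries each). The log2 fold change of -1.23 (standard error 0.30, 95% interval -1.93 to -0.52) had an adjusted p of 0.051 in edgeR's quasi-likelihood test and of 0.0027 in DESeq2. The difference between the DNK libraries was larger than in 96.1% of the 1000 genes of nearest count, counting ties. Leaving out DNK1 gave a log2 fold change of -1.66, whereas leaving out DNK2 gave -0.89. It was -0.97 without CtrlK1 and -1.44 without CtrlK2.

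The pair of zebrafish *nr4a2* copies differed in detection. The *nr4a2a* gene (ENSDARG00000017007) had 0 counts in all 4 libraries, which allows up to 0.119 CPM of total counts (without TMM scaling), and could not be tested. Its copy *nr4a2b* (ENSDARG00000044532) had 329 (CtrlK1), 299 (CtrlK2), 84 (DNK1) and 222 (DNK2) counts. Both DNK libraries lay below both CtrlK libraries, but they were far apart, and the log2 fold change of -1.12 (SE 0.50, edgeR quasi-likelihood adjusted p = 0.23) did not pass. The names of these copies rest on neighbouring rows of the count table, of which 5 of 5 with a known place lay on the chromosome of *nr4a2a* and 13 of 13 on that of *nr4a2b*, since the table of identifiers gives both the same human-style symbol.

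**Figure D2:**
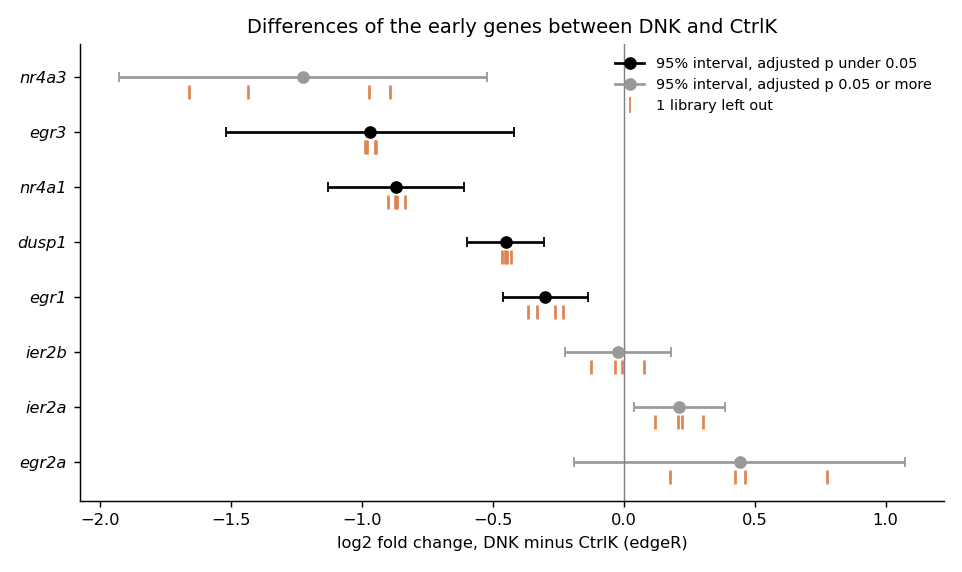
Log2 fold change of DNK against CtrlK (x axis) for the 8 tested early genes (y axis), with the 95% interval of edgeR's quasi-likelihood fit in black where the adjusted p was under 0.05 and grey otherwise, and with orange ticks for the fits that left out 1 library. The ticks of *nr4a1*, *dusp1* and *egr3* stay close to the full fit, while those of *nr4a3* reach from -1.66 to -0.89 and those of *egr2a* from 0.18 to 0.78.

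The *dusp1* gene (ENSDARG00000100515), which encodes a nuclear phosphatase of p38, Jnk and Erk kinases, had 30367 (CtrlK1), 37902 (CtrlK2), 27546 (DNK1) and 25643 (DNK2) counts. In CPM these were 1280 and 1310 in CtrlK and 945 and 948 in DNK, again with almost equal replicates. The DNK libraries differed by less than the standard error of 0.0084 that counting error alone gives the log2 fold change. Normalized counts fell from 35175 ± 504 to 25744 ± 60.9 (SD, n = 2 libraries each), to 0.732 of the CtrlK level (log2 fold change -0.45, standard error 0.06, 95% interval -0.60 to -0.30, adjusted p = 0.0069, edgeR quasi-likelihood test). Leaving out each library in turn kept the call, with adjusted p between 0.031 and 0.041 from edgeR. In the likelihood-ratio test of edgeR the adjusted p was 0.094, and the call was lost. The counts of *nr4a1* per count of *dusp1* were 0.0980 and 0.1004 in CtrlK and 0.0740 and 0.0743 in DNK, so that *nr4a1* was lowered by more than *dusp1* in both DNK libraries.

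The Ier2 genes, which encode small nuclear proteins of the immediate early response, did not fall with these. The *ier2a* gene (ENSDARG00000099195) had 43537 (CtrlK1), 53650 (CtrlK2), 58271 (DNK1) and 61399 (DNK2) counts. Both DNK libraries were higher, at 2000 and 2270 CPM against 1840 and 1850 CPM, with a log2 fold change of 0.21 (standard error 0.07, 95% interval 0.04 to 0.39, adjusted p = 0.13, edgeR quasi-likelihood test). Its copy *ier2b* (ENSDARG00000086881) had 17671, 22009, 20082 and 21448 counts in CtrlK1, CtrlK2, DNK1 and DNK2. The groups of *ier2b* overlapped, at 745 and 759 CPM in CtrlK and 689 and 793 CPM in DNK, and the log2 fold change was -0.02 (standard error 0.09, 95% interval -0.22 to 0.18, adjusted p = 0.93, edgeR quasi-likelihood test). Each *ier2a* count came with 1.21 and 1.15 counts of *egr1* in the CtrlK libraries and with 0.925 and 0.743 in the DNK libraries. The corresponding ratio of *dusp1* to *ier2b* was 1.72 in both CtrlK libraries and 1.37 and 1.196 in DNK. Since *egr1* was lower and *ier2a* higher in both DNK libraries, the ratio of these genes had to separate the groups.

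The differences were also set against endothelial RNA, because *kdrl*, the gene whose promoter drove the reporter, fell itself (22782, 28519, 19725 and 19779 counts in CtrlK1, CtrlK2, DNK1 and DNK2, log2 fold change -0.47, adjusted p = 0.011, edgeR quasi-likelihood test). Per *kdrl* count there were 1.33 *dusp1* counts in each CtrlK library and 1.40 and 1.30 in DNK, and 2.32 and 2.16 *egr1* counts in CtrlK and 2.73 and 2.31 in DNK. Neither ratio separated the groups in the direction of the fall. Per *kdrl* count there were 0.131 and 0.134 *nr4a1* counts in CtrlK and 0.103 and 0.096 in DNK, which did not overlap. The 8 endothelial markers all had log2 fold changes below 0, but these reached from -0.66 (*pecam1*) to -0.10 (*erg*). Since 3 of them were called lower, their sum rests in part on genes that themselves differed. Scaling the libraries to the summed counts of these 8 markers, an alternative added after these values were seen, moved the median log2 fold change of all tested genes from -0.02 to 0.28. Under it the log2 fold change was -0.57 for *nr4a1* (adjusted p = 0.015), -0.67 for *egr3* (adjusted p = 0.10), -0.92 for *nr4a3* (adjusted p = 0.092), -0.15 for *dusp1* (adjusted p = 0.11) and 0.003 for *egr1* (adjusted p = 0.98) in edgeR's quasi-likelihood test. With the same scaling *ier2a* was called higher, with a log2 fold change of 0.51 (adjusted p = 0.0029, edgeR quasi-likelihood test), and *ier2b* too, with 0.28 (adjusted p = 0.045), which was the median of all tested genes under this scaling.

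**Figure D3:**
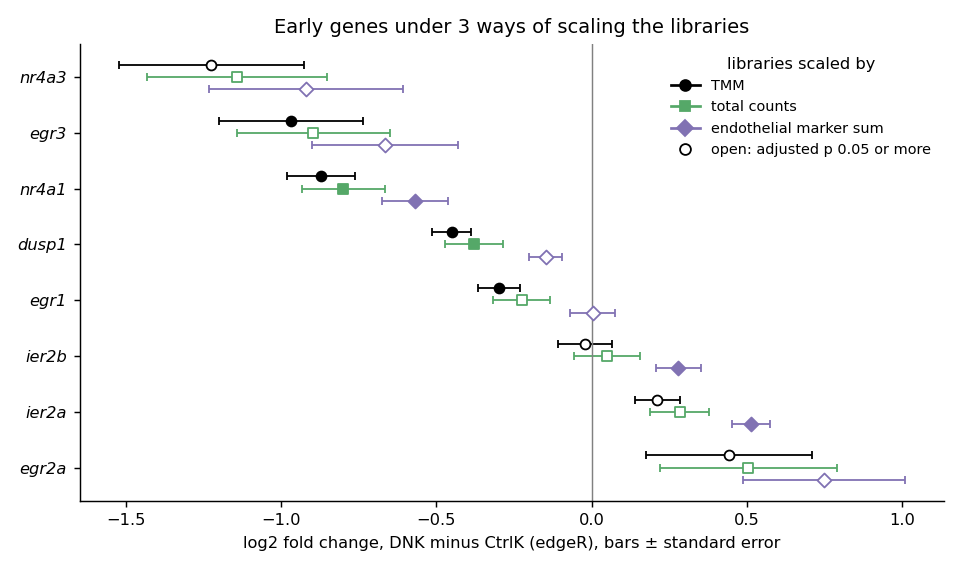
Log2 fold change of DNK against CtrlK (x axis) for the 8 tested early genes (y axis) with libraries scaled by TMM, by total counts or by the summed endothelial markers. Bars are standard errors of edgeR's quasi-likelihood fit, and open symbols mark an adjusted p of 0.05 or more. Under the endothelial scaling *egr1* comes to 0.003 and *dusp1* to -0.15, while *nr4a1* stays called at -0.57. The median of all tested genes is 0.28 under that scaling.

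The genes around these early genes were compared by lists of related function. Among 10 genes of the AP-1 factors, which are induced beside the Egr genes, 3 fell and 3 rose (8.45% of all tested genes were called in either direction), with a median log2 fold change of -0.22. The fallen genes included *fosb* with a log2 fold change of -0.72 and *fosl2* with -0.61 (adjusted p = 0.032 and 0.023, edgeR quasi-likelihood test), and *junbb* and *fosl1a* rose by 0.48 and 0.49 (adjusted p = 0.015 and 0.037). The gene of the list with most counts, *fosab*, had 106911, 146442, 112777 and 118345 counts in CtrlK1, CtrlK2, DNK1 and DNK2 and a log2 fold change of -0.21 (adjusted p = 0.16). Without each library in turn, the log2 fold changes kept their direction, but the adjusted p of *fosb* ranged up to 0.20 and that of *fosl1a* up to 0.14, so several of these calls were lost with 1 library fewer. The log2 fold change of *fosb* was -0.46 without CtrlK2. Scaled to the endothelial markers, *fosb* (-0.41, adjusted p = 0.085) and *fosl2* (-0.31, adjusted p = 0.090) were not called.

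Of 19 tested genes in a list of other early response genes, 5 fell and 1 rose, with a median log2 fold change of 0.06. Of all tested genes, edgeR called 4.23% lower and 4.22% higher. DESeq2 called 6 genes of the list lower and 4 higher, beside 8.35% and 7.41% of all tested genes. The largest decreases were those of *id1*, an inhibitor of basic helix-loop-helix factors and target of BMP signaling (log2 fold change -1.11, adjusted p = 0.0013, edgeR quasi-likelihood test), and of *klf2b*, a flow-responsive Krüppel-like factor (-0.92, adjusted p = 0.0015). They were followed by *socs3a*, a feedback inhibitor of Jak/Stat signaling (-0.63, adjusted p = 0.00095), which also had most counts of the list, and by the early transcription factor gene *csrnp1b* (-0.48, adjusted p = 0.0086), whose call ended under the endothelial scaling (-0.18, adjusted p = 0.095). The gene that rose was *ppp1r15a* (0.40, adjusted p = 0.047, edgeR quasi-likelihood test). The copies *klf2a* (0.12, adjusted p = 0.35) and *socs3b* (0.44, adjusted p = 0.077) did not fall and were not called by edgeR. DESeq2 called *socs3b* higher (adjusted p = 0.012). Among 5 further genes of the Egr, Nr4a and Ier families, *ier5* alone was called, beside 8.45% of all tested genes in either direction. It rose from 9770 and 13647 counts in CtrlK1 and CtrlK2 to 16741 and 16442 in DNK1 and DNK2, a log2 fold change of 0.42 (adjusted p = 0.034, edgeR quasi-likelihood test, and between 0.041 and 0.16 with 1 library left out).

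None of 8 tested MAP kinase phosphatase genes other than *dusp1* was called by edgeR (smallest adjusted p = 0.090, that of *dusp16*, the 1 gene of these with an unadjusted p under 0.05), and DESeq2 called *dusp16*, with an adjusted p of 0.046. The phosphatase genes *dusp5* and *dusp6*, known targets of Erk signaling, differed by -0.12 and 0.06 on the log2 scale (edgeR adjusted p = 0.48 and 0.70). Of 15 tested upstream kinases and transcription factors, 2 rose and 1 fell, beside 4.22% and 4.23% of all tested genes. The gene of the Mek kinase *map2k1* rose by 0.38 (adjusted p = 0.033, edgeR quasi-likelihood test, and between 0.097 and 0.13 with 1 library left out). The transcription factor gene *mef2ca*, which is also active in cardiomyocytes, fell by 2.51 on the log2 scale (adjusted p = 0.026, and up to 0.084 with 1 library left out), with 369 and 487 counts in CtrlK and 43 and 114 in DNK, beside the cardiomyocyte marker shares given above. The Elk gene *elk3*, with most counts of this list, had a log2 fold change of 0.19 (adjusted p = 0.28).

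Among the feedback regulators, *spred2a*, an inhibitor of Ras and Erk signaling, rose by 0.67 (adjusted p = 0.025, edgeR quasi-likelihood test, and between 0.039 and 0.10 with 1 library left out), and none of the other 7 was called by edgeR. Of all tested genes, edgeR called 8.45% in either direction. The Egr corepressor gene *nab2* had 39, 90, 54 and 30 counts in CtrlK1, CtrlK2, DNK1 and DNK2, without separation of the groups. The corepressor gene *nab1a* had 121 and 16 counts in CtrlK and 0 and 3 in DNK, and did not pass edgeR's test (adjusted p = 0.081), whereas DESeq2 called it lower (adjusted p = 0.0037). Of 10 tested genes known as Egr1 targets in mammals, edgeR called *pdgfbb* alone, beside 8.45% of all tested genes in either direction. This growth factor gene fell from 1732 and 2355 counts in CtrlK1 and CtrlK2 to 643 and 663 in DNK1 and DNK2 (log2 fold change -1.73, standard error 0.15, adjusted p = 0.00097, edgeR quasi-likelihood test). The tissue factor gene *f3b* had 3257, 3586, 3015 and 1904 counts, which edgeR did not call (log2 fold change -0.59, adjusted p = 0.11) and DESeq2 did (adjusted p = 0.024). Without DNK1 its log2 fold change was -0.89 and edgeR called it (adjusted p = 0.026), and without DNK2 it was -0.33. The median of this list was -0.28, with 6 of 10 genes below 0, beside 51.7% of all tested genes.

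**Figure D4:**
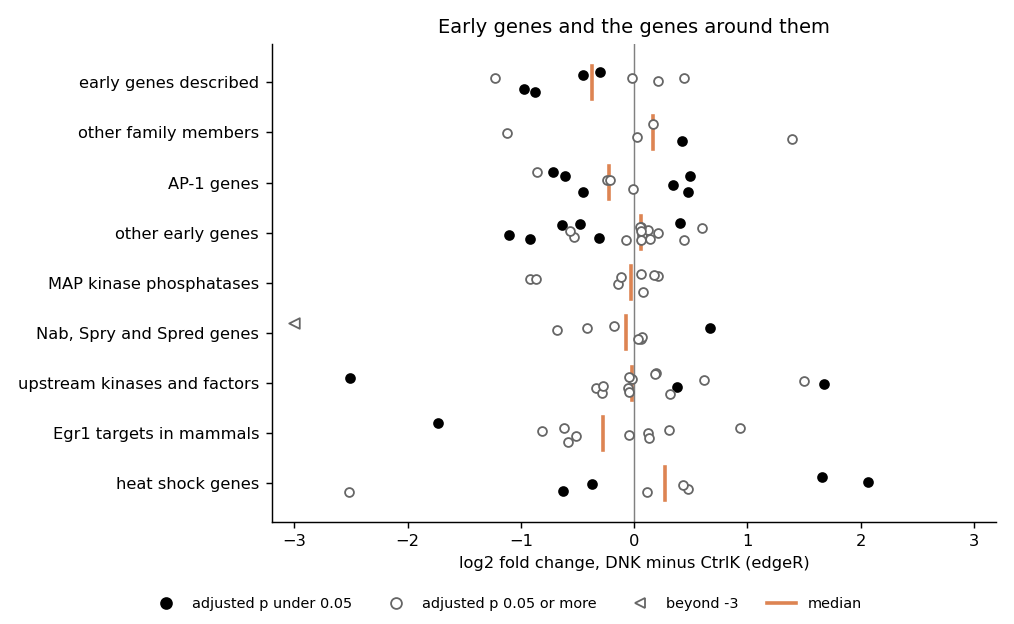
Log2 fold change of DNK against CtrlK (x axis) for every tested gene of the early genes described and of 8 lists around them (y axis), filled where edgeR's adjusted p was under 0.05, with the median of each list as an orange line. Filled points lie on both sides of 0 for the AP-1 genes, the other early genes, the upstream kinases and factors and the heat shock genes. The 4 filled points of the early genes described lie below 0. One gene beyond the left edge, *nab1a*, is drawn at the edge.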

How the data were processed

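The authors mapped read pairs with HISAT2 version 2.2.1 to GRCz11, kept uniquely mapped reads and deposited raw counts per Ensembl gene from featureCounts version 2.0.1, without normalization or filter. Whether counting used strand is not given in the sources used here, so overlapping and antisense genes are uncertain. Counts depend on transcript length and were not compared between genes as levels. The study's FPKM filter and DESeq2 test were replaced by filterByExpr and edgeR version 4.0.16 (TMM, robust glmQLFit, glmQLFTest, group as the only term, adjusted p under 0.05), in R version 4.3.3. DESeq2 version 1.42.0 was an alternative. Standard errors are the fold change divided by the square root of F. Normalized counts are scaled to the mean library size, and CPM to the TMM-scaled library size, except for the smallest detectable level, which uses total counts. The fits were tested on simulated data. Profiles used log2 CPM with a prior count of 0.5.

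Symbols came from the study's gene table (1998 genes), the identifier table (15775) or, for 9675 genes with a human-style symbol, from the GRCz12tu gene whose chromosome matched most of the 25 rows before and after it. That gave the study's name for 94.9% of 1046 genes. The 9 genes and all lists were chosen with earlier results of these data known. All 9 are named, and from each list up to 4 called genes with the largest change, the gene with most counts and 5 genes of like profile. Other genes were named after their values were seen. The result of 1 gene of the upstream list is not reported here. The study describes the libraries as biological replicates, and the labels do not give the fish of each pool, so p-values measure the spread between these libraries. EdgeR also draws the variance of each gene toward that of other genes, so the p-value of a gene does not rest on its own 4 values alone. The alternatives were other scalings, filters and tests, a stricter threshold, a replicate block each library left out in turn and, added after the data were seen, scaling to endothelial markers. Figures were made with Matplotlib version 3.10.9.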

Additional observations from a re-analysis of the deposited data

How the results depend on the processing

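The *nr4a1* gene was called under each of 9 other fits of all 4 libraries at the same threshold (other scalings, filters, tests and dispersions, and the replicate block), and *dusp1* in all but the likelihood-ratio test (log2 fold change -0.45). The number of early genes called was 2 with upper-quartile scaling, total counts, non-robust dispersions or an adjusted p under 0.01, since *egr1* (log2 fold changes -0.28, -0.22, -0.30 and -0.30) and *egr3* (-0.95, -0.90, -0.97 and -0.97) were lost. The likelihood-ratio test also lost *egr1* (-0.30). The *nr4a3* gene was called without a filter (-1.22), with at least 10 counts in every library (-1.24), in DESeq2 (-1.22) and in the likelihood-ratio test (-1.23), and *ier2a* without a filter (0.22). The *ier2b* value changed sign to 0.050 with total counts.

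With 1 library left out, where the lone library was assumed to vary like the other group, 2 to 4 early genes were called, and 354 to 425 genes were higher and 328 to 567 lower. The log2 fold changes were -0.37 to -0.23 for *egr1*, -0.99 to -0.95 for *egr3*, -1.66 to -0.89 for *nr4a3* and -0.13 to 0.078 (above 0 without DNK1) for *ier2b*. Genes called higher and lower numbered 1315 and 1775 without a filter, 1271 and 1432 in DESeq2, and 271 and 223 at an adjusted p under 0.01, and the likelihood-ratio test called 971 higher and 1268 lower. The deviations between replicates 1 and 2 were little correlated between the groups (0.0784 over 17151 genes). Counting error of genes with few counts can lower this value, so a pairing was not excluded. The numbering of the DNK libraries is itself uncertain, so that the block may join the wrong libraries. With the replicate block 747 genes were higher and 894 lower, *egr3* was not called (-0.97) and *nr4a3* was (-1.26).

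Scaled to the endothelial markers, 2252 genes were called higher and 519 lower. The *egr1* value became 0.0032, *ier2b* 0.28, *spry4* 0.12 and *fosab* 0.089, *egr3* (-0.67) and *dusp1* (-0.15) were not called, and *ier2a* was (0.51). A scaling multiplies all counts of a library by 1 factor, so these values moved together with the rest. The median log2 fold change of all tested genes went from -0.02 to 0.28. Why the endothelial markers took lower shares in DNK was not tested. With 2 libraries a group, differences of 1 or more on the log2 scale can be missed. Promoter motifs and protein sequences were not analysed here.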

Other observations

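Of 8 tested heat shock and chaperone genes, 2 rose and 2 fell in DNK, beside 4.22% and 4.23% of all tested genes. The inducible Hsp70 genes *hsp70l* and *hsp70.3* rose by 2.06 and 1.66 on the log2 scale (adjusted p = 0.00042 and 0.0029, edgeR quasi-likelihood test). The *hsp70l* gene had 1050 (CtrlK1), 1425 (CtrlK2), 5095 (DNK1) and 5842 (DNK2) counts, with a wide gap between the groups. The constitutive chaperone gene *hspa8* and the small heat shock protein gene *hspb1* fell by 0.37 and 0.62 (adjusted p = 0.012 and 0.018, and up to 0.071 and 0.091 with 1 library left out). Scaled to the endothelial markers, neither was called (log2 fold changes -0.065 and -0.32, adjusted p = 0.40 and 0.11 in edgeR). Copies of the Hsp70 family share sequence, so that reads can be lost or split between them. The *nr4a1*, *egr3* and *dusp1* genes were lower in the libraries in which *hsp70l* was higher. With only 2 groups this holds for any gene that fell, so it shows no link between them. The part of the digestion in these differences was not tested.

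Over the 4 libraries, the mean centred log2 CPM of the 8 tested early genes was 0.185 and 0.213 in CtrlK1 and CtrlK2 and -0.168 and -0.231 in DNK1 and DNK2. By the root mean square difference from this profile, the closest of 5974 named genes that averaged 500 or more counts were *hyal4* (0.0141), *si:ch73-334d15.2* (0.0165), *lipeb* (0.0173), *col4a2* (0.0191) and *lgals3b* (0.0205). None of these 5 was called by edgeR, with adjusted p between 0.067 and 0.21. They were selected as the closest of 5974 genes over only 4 libraries, so their closeness shows no link to the early genes. Of the early genes, *dusp1* lay closest to the mean profile (0.0353) and *nr4a3* farthest from it (0.526).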
